A study of Mus musculus with 2 samples.

Results

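The oligoadenylate synthetase (Oas) genes were examined in mouse oocytes at metaphase II, the stage at which the egg is ovulated. The family was taken by gene symbol and held 10 genes, Oas1a to Oas1h, Oas2 and Oas3, of 36227 Ensembl genes in the deposited table. Of these 10 genes, 8 had counts and 5 reached 10 CPM (a count as parts per 1e6 of its library) in at least 1 library. Female ICR mice, an outbred strain, were raised in standard cages and were obese at 12 weeks of age. They then spent 4 weeks either in enriched-environment cages (slimming group) or in normal cages on a standard diet (control group). At 16 weeks, 3 naturally ovulated oocytes were taken from each of 3 mice per group, and the 9 oocytes of a group were lysed and sequenced as 1 library. The comparison asks how the mother's slimming relates to the mRNA of her oocytes, and since each group was 1 pool no difference below has a replicate check and each speaks for this pair of pools alone.

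Oas enzymes are part of the antiviral response. On binding double-stranded RNA they join ATP into short 2′-5′ linked chains, a signal that leads to the breakdown of cellular and viral RNA, and in most tissues their genes are induced by interferon. The mouse Oas1 gene was copied many times, and several copies are known from the ovary rather than from infected cells. Oas1a and Oas1g are known as active enzymes. The Oas1d protein has no synthetase activity and can bind and inhibit Oas1a, and female mice without Oas1d have been reported to have reduced fertility. Mouse oocytes are also known for handling long double-stranded RNA through Dicer, with little interferon response.

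The total was 20947962 counts in the slimming library, spread over 15831 genes, and 20242289 in the control library, over 16466. The pools carried the marks of oocytes: all 10 oocyte markers examined, among them Gdf9 and H1foo, were expressed. Their sums were 99276 (slimming) and 101088 CPM (control), and 6 of them were higher and 4 lower in the slimming library. Zp3 was 2.04-fold, Zp1 1.92-fold and Zp2 1.75-fold higher there. The sum of 16 immune cell markers was 27.6 CPM (slimming) against 45.5 CPM (control), most of it H2-Aa. Of them 3, Cd74, Cd3e and Cd79a, had no count in either library. Another 8, Tyrobp and Csf1r included, were at 0 in the slimming library alone, 3 of them with at least 10 control counts. The sum of 14 cumulus and granulosa cell markers was 41.2 CPM against 54.3 CPM, most of it Cyp19a1. Of them 7, Fshr, Amh and Foxl2 included, had no count in either library. Another 4 were at 0 in the slimming library alone, 3 of them with at least 10 control counts. No marker of either list was at 0 in the control library alone. Over all 18017 genes with counts, 2186 were at 0 in the slimming library alone and 1551 in the control library alone. With at least 10 counts in the other library these were 294 and 170. In such bulk pools, fewer cells of a type and less RNA per cell cannot be told apart.

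All 10 Oas genes lie side by side on chromosome 5, in the order Oas2, Oas3, Oas1e, Oas1c, Oas1b, Oas1f, Oas1h, Oas1g, Oas1a and Oas1d (order from GENCODE vM21, build GRCm38). Their copies differ at the active site of the enzyme, where OAS proteins hold metal ions with 3 aspartates. A stretch of 51 coding bases around the first 2 of these aspartates is shown for each Oas1 gene because the copies with most counts differ there from those with few or none. It was read from the GENCODE vM21 transcripts, which carry the sequence of the reference strain and not that of the ICR mice, and it is written 5′ to 3′. Capitals mark the 3 codons that are codons 76 to 78 in Oas1a.
Oas1a: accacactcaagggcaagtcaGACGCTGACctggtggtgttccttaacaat
Oas1g: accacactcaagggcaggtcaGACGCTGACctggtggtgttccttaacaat
Oas1b: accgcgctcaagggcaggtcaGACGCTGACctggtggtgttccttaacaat
Oas1d: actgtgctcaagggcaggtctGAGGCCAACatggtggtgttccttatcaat
Oas1e: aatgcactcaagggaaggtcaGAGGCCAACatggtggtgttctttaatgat
Oas1c: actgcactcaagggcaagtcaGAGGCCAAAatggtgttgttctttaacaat
Oas1f: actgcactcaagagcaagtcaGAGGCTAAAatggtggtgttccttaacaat
Oas1h: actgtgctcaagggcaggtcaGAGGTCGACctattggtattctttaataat

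In Oas1a, Oas1g and Oas1b the capitals encode aspartate, alanine and aspartate. In Oas1d and Oas1e they encode glutamate, alanine and asparagine, and in Oas1c and Oas1f glutamate, alanine and lysine. Oas1h reads glutamate, valine and aspartate. The third aspartate, codon 149 of Oas1a, was kept in 7 of the 8 genes, and Oas1h had a histidine codon at that place of the alignment. The 4 Oas1 genes that reached 10 CPM in both libraries, Oas1c, Oas1d, Oas1e and Oas1h, had a glutamate codon at the first position. So had Oas1f, which reached 10 CPM in the slimming library alone and at 4.00 CPM in the control library lay close to the 3.01 CPM of Oas1b. Oas1b and both Oas1 genes without any count, Oas1a and Oas1g, had the aspartate pair. The stretch was chosen with these counts known. Over their coding bases Oas1a and Oas1g were 96.7% identical and Oas1d and Oas1e 90.0%, so the genes are not separate finds. Over the stretch shown, Oas1a differed from Oas1g at 1 base, from Oas1f at 7 and from Oas1d at 11.

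The levels of the family spanned several orders of magnitude and were led by Oas1d. Oas1d (ENSMUSG00000032623) had 113391 counts in the slimming and 104806 counts in the control library, or 5413 and 5178 CPM. Scaled by transcript length, its level was 2678 CPM per kilobase (kb) in the slimming and 2562 CPM per kb in the control library. By that measure it ranked 16 in the slimming library against 19 in the control among 16913 genes with counts and a known transcript length. Oas1d alone held 83.2% of all Oas counts in the slimming library (exact Clopper-Pearson 95% interval 83.0 to 83.4) and 85.6% in the control library (85.4 to 85.8).

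Next to Oas1d stood 3 genes that are also known from the ovary. Oas1e (ENSMUSG00000066867) had 13711 and 11688 counts in the slimming and control libraries, a level of 363 and 321 CPM per kb. Oas1c (ENSMUSG00000001166) had 6015 and 3734 counts, or 125 and 80.5 CPM per kb. Oas1h (ENSMUSG00000001168) had 2581 and 2085 counts, or 72.3 and 60.5 CPM per kb. The order Oas1d, Oas1e, Oas1c, Oas1h was the same in both libraries, and the smallest step in it, from Oas1c to Oas1h, was 1.73-fold in the slimming and 1.33-fold in the control library.

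The remaining genes were low or had no count. Oas1f (ENSMUSG00000053765) had 391 counts against 81 in the control library, or 12.6 and 2.70 CPM per kb. Oas1b (ENSMUSG00000029605) had 119 and 61 counts, or 3.09 and 1.64 CPM per kb. Oas1b is the flavivirus resistance gene, annotated in the reference strain as a polymorphic pseudogene, and which allele these ICR mice carried was not tested. Oas2, an interferon-induced enzyme, had 13 and 19 counts, with exact Poisson 95% intervals of 0.330 to 1.06 CPM in the slimming and 0.565 to 1.47 CPM in the control library. These overlap, and a difference in Oas2 was not detectable at this depth. Oas3, the largest of the enzymes, had 1 count in the slimming library against 0 in the control, both under the limit of 3 counts, so no ratio is given.

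Oas1a (ENSMUSG00000052776) and Oas1g (ENSMUSG00000066861), the copies known as active enzymes, were listed without a count in either library. With 3 counts as the upper limit of a count of 0, their level was at most 0.143 (slimming) and 0.148 CPM (control). That limit holds for counting error and for reads that could be assigned to these genes, which are near copies of each other.

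**Figure D1:**
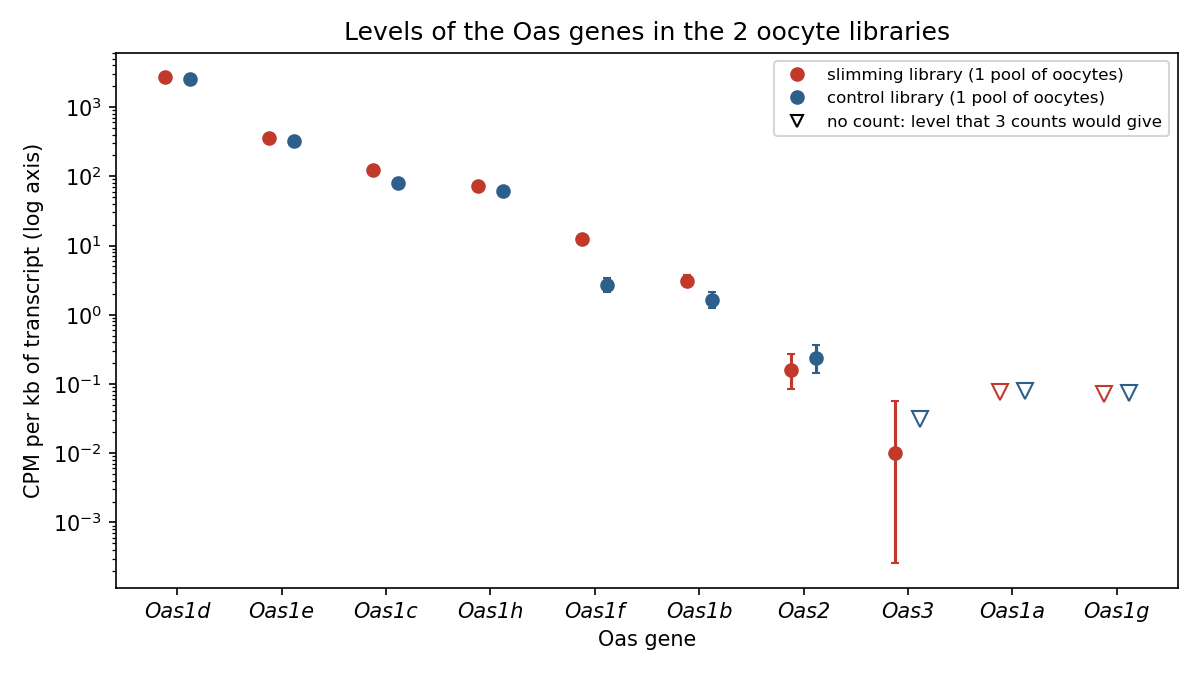
Level of each Oas gene in the slimming and control library, in CPM per kb of transcript on a log axis, with exact Poisson 95% intervals; open triangles mark genes without a count, drawn at the level that 3 counts would give. Oas1d leads with 2678 and 2562 CPM per kb, and Oas1a and Oas1g have no count.

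How far the copies can be told apart bears on each of these values. Among the 28 pairs of Oas1 genes, the aligned coding bases were between 70.0% identical (Oas1b and Oas1e) and 96.7% identical (Oas1a and Oas1g), with a median of 76.4%. Oas1d and Oas1e, the most abundant genes, were 90.0% identical. The read length is not given in the sources used here, so windows of 50 bases were examined along the longest transcript of each gene. In Oas1a, 57.6% of the windows, and in Oas1g 54.7%, occurred without a mismatch in another gene, which left 42.4% and 45.3% found unchanged in no other gene. In Oas1d the share found elsewhere was 6.24%, in Oas1e 11.3%, in Oas1c 16.3%, in Oas1f 2.94%, in Oas1b 3.41% and in Oas1h 0.484%. A second share counted windows within 2 mismatches of another Oas gene on the same strand, and genes outside the family were not searched for it. It was 86.8% in Oas1a and 82.3% in Oas1g, so few of their windows were distinct at that tolerance. In Oas1d it was 43.1%, in Oas1e 40.8%, in Oas1c 35.8%, in Oas1f 21.5% and in Oas1h 9.07%. Oas2 had no window of either kind. How reads with several matches were treated is not given in the sources used here, and an antisense gene, Gm43069, shares 227 exonic bases with Oas1c (9.44% of them) and was not in the deposited table.

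**Figure D2:**
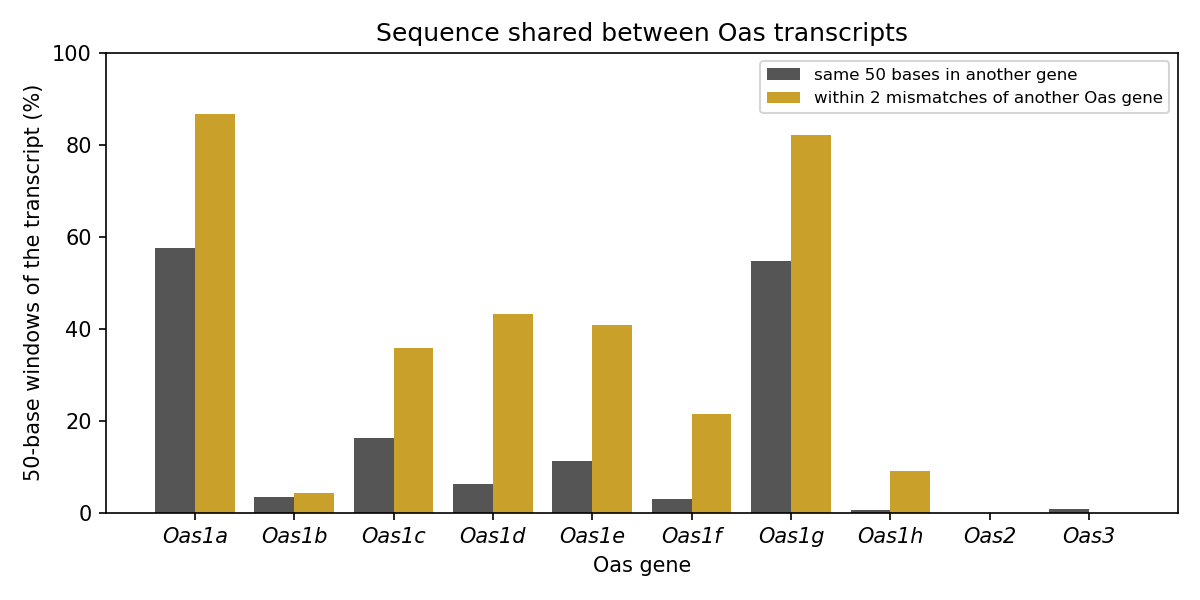
Share of the 50-base windows of each gene's longest transcript that occur unchanged in another gene (grey) or lie within 2 mismatches of another Oas gene (gold), in percent. Oas1a and Oas1g stand highest with 57.6% and 54.7% unchanged, and Oas1h, Oas2 and Oas3 have less than 1% unchanged.

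Between the 2 libraries, the most abundant genes, Oas1d and Oas1e, were nearly equal, Oas1c was moderately higher and Oas1f, a copy of low level, was several-fold higher in the slimming library. Ratios are given as log2 of slimming over control after scaling the libraries with TMM factors and adding 0.5 to each count, with a 95% counting interval. Oas1d had a log2 ratio of 0.03 (interval 0.02 to 0.04), which became 0.06 when the libraries were scaled by total count. Oas1e had 0.15 (0.11 to 0.19) and Oas1h 0.23 (0.14 to 0.31). Oas1c, at 287 CPM (slimming) and 184 CPM (control), was 1.52-fold higher in the former (log2 0.61, 0.55 to 0.67). The median log2 ratio of the 5 expressed members, all above 0, was 0.23, where that of all 5714 expressed genes was 0.02. Oas1f was among the 5 through the slimming library alone, so its sign followed from the 10 CPM rule. The 5 are related copies, so their shared direction is not 5 separate finds.

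Oas1f was the 1 expressed member at least 2-fold apart. It stood at 18.7 CPM (slimming) and 4.00 CPM (control), 4.54-fold higher in the slimming library (log2 2.18, interval 1.84 to 2.55). In the slimming library 2.73% of the 5714 expressed genes were higher by 2-fold or more and 1.94% were lower by as much, and among the 5 expressed Oas genes 1 was higher and 0 were lower. The ratio of Oas1f was reached by 12 of these expressed genes, itself included, and in the authors' deposited table its scaled log2 ratio was 2.22. The counts of Oas1f amounted to 0.345% of those of Oas1d in the slimming library against 0.0773% in the control. The closest copy to Oas1f was Oas1c, which held 16.8% of the 50-base windows of Oas1f within 2 mismatches. Whether reads of Oas1d or Oas1c entered the count of Oas1f was not tested. Oas1f reached 10 CPM only in the slimming library. Oas1b was 1.84-fold higher (log2 0.88, 0.43 to 1.35), and the log2 ratio of Oas2 was -0.61, its interval running from -1.77 to 0.47.

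**Figure D3:**
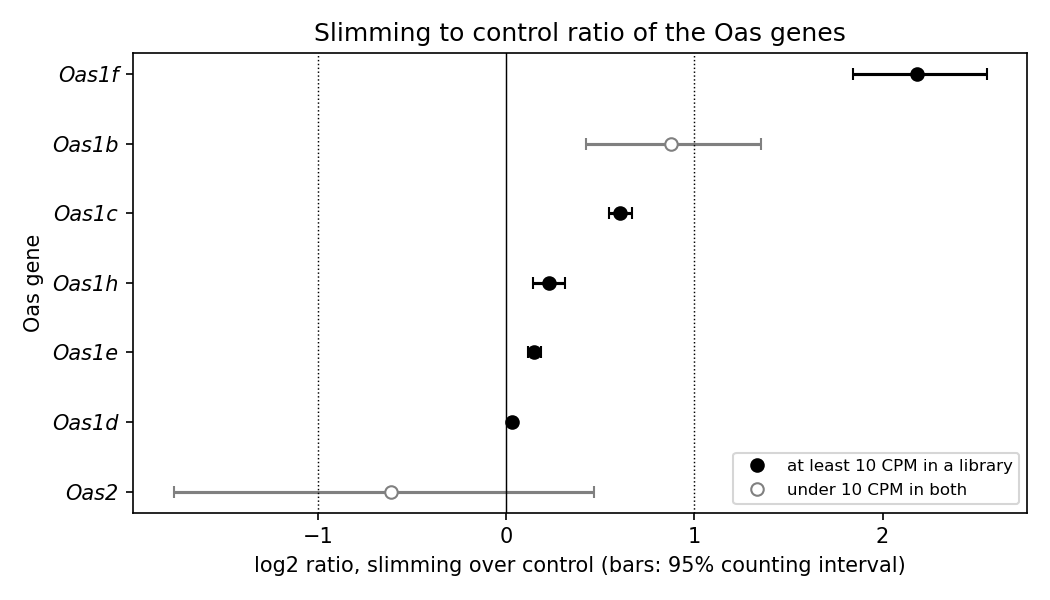
Log2 ratio of slimming over control for the 7 Oas genes with enough counts to give one, with 95% counting intervals; dotted lines mark 2-fold, and filled points are genes with at least 10 CPM in a library. Oas1f lies beyond the upper dotted line at 2.18, Oas1d lies at 0.03, and the interval of Oas2 crosses 0.

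Counting intervals do not cover the spread between pools of oocytes, so the ratios were also set beside those of all genes of a like level in the same libraries, which hold any effect of the treatment as well. Among genes with a mean of 1000 CPM or more, where Oas1d lies, 2.21% were at least 2-fold apart. Between 100 and 1000 CPM, the range of Oas1c, Oas1e and Oas1h, the share was 1.07%, and 2.5% of genes lay above a log2 ratio of 0.69, which Oas1c at 0.61 did not reach. Between 10 and 100 CPM, the range of Oas1f with a mean of 11.3 CPM, 3.96% were 2-fold apart and 2.5% lay above 0.99, under the 2.18 of Oas1f. Just below, between 1 and 10 CPM, 26.1% were 2-fold apart and 2.5% lay above 2.14. Oas1b, at a mean of 4.35 CPM and a log2 ratio of 0.88, lay inside that range.

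**Figure D4:**
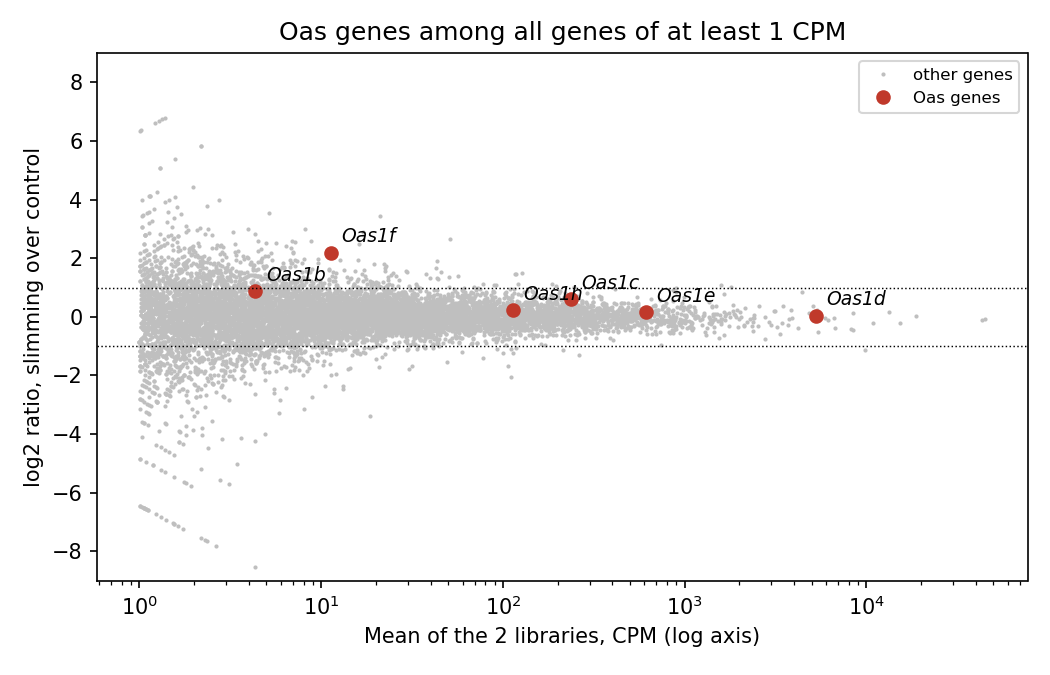
Log2 ratio of slimming over control against the mean level of the 2 libraries (CPM, log axis) for genes of at least 1 CPM in grey, with 6 Oas genes in red; dotted lines mark 2-fold. Oas1d at 0.03 and Oas1e at 0.15 lie in the middle of the cloud, and Oas1f at 2.18 lies above it near the level where the cloud widens.

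A sum over the copies is the same whichever copy a shared read was assigned to, though reads dropped for several matches would be missing from it. The 8 Oas1 genes together had 136208 counts in the slimming library against 122455 in the control, which was 0.650% and 0.605% of each library and a log2 ratio of 0.07 (0.06 to 0.08). Oas1d set that sum. Without it the other Oas1 genes had 22817 and 17649 counts and a log2 ratio of 0.29 (0.26 to 0.32), 1.22-fold higher in the slimming library. The immune and the cumulus and granulosa marker sums were lower in the slimming library, the opposite direction to Oas1f, Oas1c and Oas1b. Oas2, at a log2 ratio of -0.61 (-1.77 to 0.47), had the direction of the marker sums. The part of such cells in the ratios of the Oas genes was not tested.

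The sequence just upstream of the genes was compared because the family holds both interferon-induced and oocyte-expressed copies. Upstream sequences were at hand for 6 members (RefSeq, GRCm38.p6), and Oas1b, Oas1d, Oas1e and Oas2 were not searched. Those of Oas1a, Oas1c, Oas1f and Oas1h are shown for the 120 bases before the annotated start, on the strand of the gene, 5′ to 3′. Capitals mark matches to the core of the interferon-stimulated response element, GAAANNGAAA, on either strand; matches that overlap run together.
Oas1a, chr5:120907526-120907645, minus strand: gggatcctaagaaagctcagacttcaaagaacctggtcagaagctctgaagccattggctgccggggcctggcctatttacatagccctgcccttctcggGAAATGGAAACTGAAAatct
Oas1c, chr5:120812515-120812634, minus strand: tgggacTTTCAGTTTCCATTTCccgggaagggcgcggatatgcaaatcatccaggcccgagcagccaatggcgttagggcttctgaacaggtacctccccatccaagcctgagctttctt
Oas1f, chr5:120847247-120847366, plus strand: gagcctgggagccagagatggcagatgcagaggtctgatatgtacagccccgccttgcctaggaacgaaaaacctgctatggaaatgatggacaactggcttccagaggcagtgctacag
Oas1h, chr5:120861302-120861421, plus strand: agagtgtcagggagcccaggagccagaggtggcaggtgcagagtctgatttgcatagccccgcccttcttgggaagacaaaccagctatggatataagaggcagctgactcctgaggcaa

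The element was found in Oas1a, Oas1c, Oas1g and Oas3, 4 of the 6 members, and in 3.44% of 32851 promoter windows of 300 bases searched the same way. In Oas1a its 2 overlapping matches began at positions -20 and -14 from the RefSeq start, and the GENCODE vM21 transcript of Oas1a begins 4 bases downstream of that start. The same overlapping pair lay on the other strand of Oas1c, at -114 and -108, in the stretch between the start of Oas1c and that of Oas1b, which runs the other way. Among the genes with a match in their window, Oas1a, Oas1g and Oas3 had at most 1 count, and Oas1c had 287 and 184 CPM. Whether the match beside Oas1c belongs to Oas1c or to Oas1b was not tested. The upstream bases of Oas1a and Oas1g were 91.5% identical over 118 aligned positions, so their matches are not separate finds. Oas1f and Oas1h, whose upstream bases were 75.2% identical over 109 aligned positions, had no match in the window. The letters TATAAA and TAATTG, searched as a TATA box and as the binding site of the oocyte factor NOBOX, were found in 4473 and 2628 of the 32851 windows and in 0 of the 6 members.

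Genes that work with the Oas enzymes or resemble them, a list of 6, were low. Oasl1 and Oasl2, Oas-like genes elsewhere on chromosome 5, had 12 and 41 counts and 13 and 11 counts in the slimming and control libraries. Pde12, which degrades the 2′-5′ chains, had 14 and 23 counts, and Abce1, a ribosome recycling factor, had 49 and 63. Akap7, a kinase anchor that also holds a 2′-5′ phosphodiesterase domain, was the 1 expressed gene of the list, at 9.83 CPM (slimming) and 18.6 CPM (control), under 2-fold apart (log2 -0.95, -1.20 to -0.70) and past 10 CPM in the control library alone. Oasl1 had a log2 ratio of -1.81 (-2.92 to -0.90) at counts under 10 CPM.

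Other sensors of foreign nucleic acid were uneven, and none of the 16 reached the level of Oas1h per kb. Mavs, the adaptor of the RIG-I-like receptors, led them at 23.0 and 22.6 CPM per kb in the slimming and control libraries, with a log2 ratio of -0.01 (-0.11 to 0.10). The DNA sensor Cgas had a log2 ratio of -0.04 (-0.16 to 0.08). Adar, which edits double-stranded RNA, had 38.0 CPM against 64.3 CPM (log2 -0.79, -0.92 to -0.66). The endosomal receptor Tlr3 was 2.12-fold lower, with 104 counts against 209 (log2 -1.08, -1.44 to -0.74). Ifih1 (MDA5), Eif2ak2 (PKR) and Tmem173 (STING), named after their values were seen, had no count. Of the 5 expressed genes 1, Tlr3, was lower by 2-fold or more, where the share of all expressed genes was 1.94%. Tlr3 had a mean of 7.64 CPM, and of genes between 1 and 10 CPM 26.1% were 2-fold apart either way. Tlr3 and Tbk1 (log2 -0.74, the median of the 5) passed 10 CPM in the control library alone, so their sign followed from that rule. With 10 counts in at least 1 library sufficing, 2 of 11 sensing genes were higher by 2-fold or more and 2 were lower. By that rule 23.6% of all genes were 2-fold apart. Ddx58 (RIG-I), named after its values were seen, was 1 of the higher, with 136 counts against 64 (log2 1.00, 0.57 to 1.46).

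Interferon signalling was represented mainly by its kinases. Jak2 had 331 and 330 CPM (log2 -0.03, -0.08 to 0.02), Jak1 had 143 and 161 CPM (log2 -0.20, -0.27 to -0.13) and Tyk2 had 31.7 and 27.0 CPM (log2 0.20, 0.04 to 0.37). The receptor subunits Ifnar1 and Ifnar2 had 7 and 14 counts and 0 and 7 counts; both were named after their values were seen. Of 4 expressed genes among 20, 0 were at least 2-fold apart, with a median log2 ratio of 0.05. Of all 5714 expressed genes, 2.73% were higher and 1.94% lower by as much, and 4 genes are too few to differ from that.

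Of the interferon-induced list, 36 of 37 genes were in the table, 27 had counts and 5 were expressed. Of these 5, 0 were at least 2-fold apart and the median log2 ratio was 0.06. With 5 genes this cannot be told from the 2.73% higher and 1.94% lower among all expressed genes. Ifitm3, a membrane protein that blocks virus entry, led with 250 CPM (slimming) and 186 CPM (control) (log2 0.39, 0.33 to 0.46). The nucleotide hydrolase Samhd1 had a log2 ratio of -0.04 (-0.14 to 0.07) and the exonuclease Isg20 0.06 (-0.05 to 0.18). Per kb, 28 of the 36 genes lay under 1 CPM, Ifitm3 was the 1 gene above Oas1h, and none was above Oas1d. Of the 27 genes with counts, 12 were at 0 in the slimming library alone and 3 in the control library alone. Over all 18017 genes with counts these numbers were 2186 and 1551. Where the other library had at least 10 counts, they were 3 and 1 of the 27, and 294 and 170 of all genes. Genes of a like low level were not set beside this list.

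**Figure D5:**
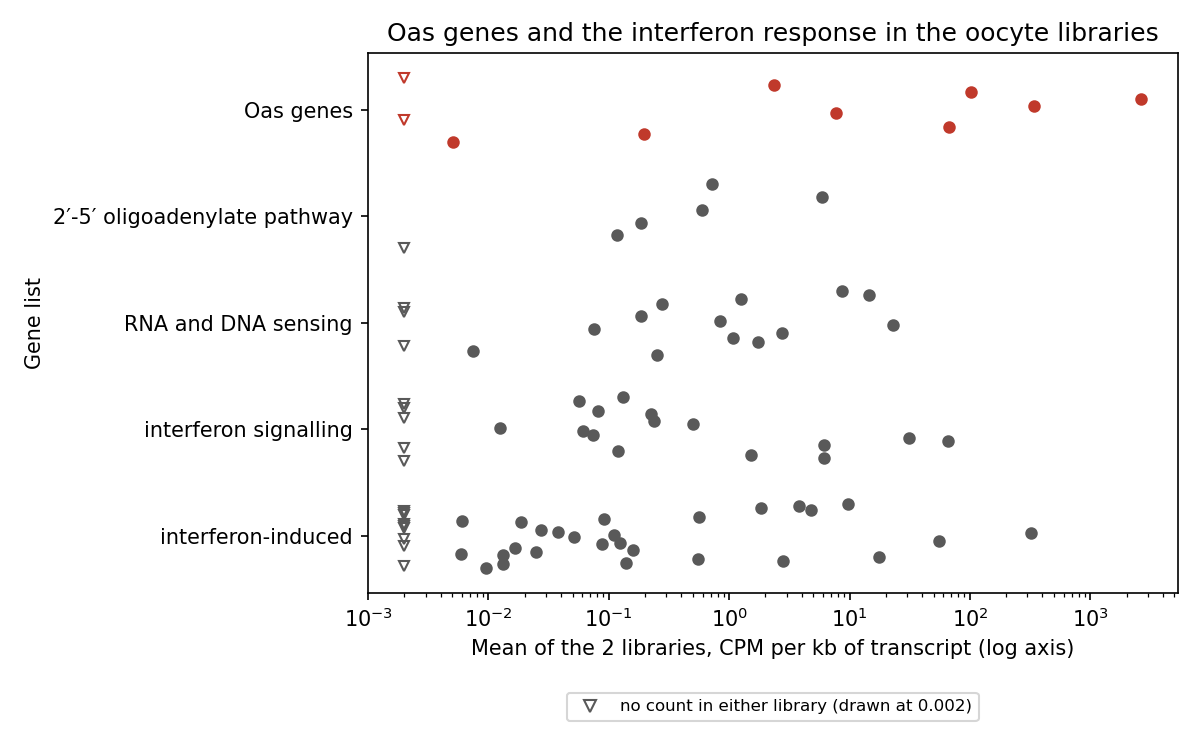
Mean level of the 2 libraries, in CPM per kb of transcript on a log axis, for each Oas gene (red) and for each gene of 4 lists of the 2′-5′ oligoadenylate pathway, nucleic acid sensing, interferon signalling and the interferon response (grey); triangles are genes without a count. Ifitm3, at 368 and 274 CPM per kb in the 2 libraries, is the highest grey point, and Oas1d lies above it.

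The genes flanking the cluster did not share the level of Oas1d. On the Oas2 side, Dtx1 had no count, Rasal1 had 43 counts in the slimming library against 3 in the control (log2 3.55, 2.12 to 6.09), and Ddx54 had 31.8 and 33.2 CPM. Rasal1 had a mean of 1.10 CPM. Of genes between 1 and 10 CPM, 26.1% were 2-fold apart either way and 2.5% lay above a log2 ratio of 2.14. On the Oas1d side, Rph3a, a synaptic vesicle protein, had 21.1 and 20.9 CPM per kb against the 2678 and 2562 of Oas1d, and the phosphatase Ptpn11 had 3.58 and 3.39. Rpl6, a ribosomal protein gene, had 11 and 8 counts, and 64.3% of its 50-base windows occurred in another gene. The genes closest to Oas1d in their level per kb over the 2 libraries were Fam220a, Accsl and Cox8a, at distances of 0.05, 0.16 and 0.17 on the log2 scale. With 2 libraries this likeness is one of level, and it held for genes with log2 ratios of -0.04, -0.11 and 0.06.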

How the data were processed

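Messenger RNA of 9 pooled oocytes per group was primed with oligo(dT), amplified for 18 and then 14 PCR cycles and sequenced on a SOLiD 4 instrument, per the labels' protocols. The authors deposited raw read counts per Ensembl gene, slimming first and control second per the file headers, and a scaled log2 ratio of the 2 libraries. Per the submitters' processing notes the build was mm9. The sources used here give no aligner, counter, strand setting or treatment of multiple matches. The deposited table gives no value for 18210 genes in either library, which was read as no count. No molecular identifiers are named, so intervals and floors cover counting error only.

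Symbols, gene order, transcript lengths (the longest transcript) and sequences came from GENCODE vM21 (GRCm38), matched by Ensembl identifier; 16913 of 18017 genes with counts had a symbol, all 10 Oas genes among them. Protein sequences were not used here. Libraries were scaled with TMM factors (1.01 slimming, 0.989 control; edgeR 4.0.16, R 4.3.3). CPM uses total counts. A gene was called expressed from 10 CPM upward in either library, and 2-fold was the size threshold. The groups, of 1 library each, were not tested. Intervals were tested on simulated Poisson counts, which hold no amplification noise and no spread between pools. That run checks the computation and not how well the intervals describe these libraries. Coding and upstream sequences were aligned with mafft 7.526; the rest ran in Python 3.11.15 with numpy 2.4.6, pandas 2.3.3, scipy 1.17.1 and matplotlib 3.10.9.

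Named were all 10 Oas genes, the 2′-5′ oligoadenylate pathway genes (1 of them is not reported here), the 3 most abundant members and up to 3 expressed members at least 2-fold apart of each other list, the 3 genes nearest Oas1d and up to 3 neighbours on each side; others were named after their values were seen. The members and lists were chosen with earlier results of these data known.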

Additional observations from a re-analysis of the deposited data

How the results depend on the processing

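No paired analysis was possible because each group was 1 library. Without Oas1d, the log2 ratio of the Oas1 sum was 0.29 in place of 0.07, and so was that of all Oas genes; scaling by total count gave 0.10 for both sums and median-of-ratios size factors 0.087 for both. Of 28 other values of single Oas genes, Oas3 left out, 25 stayed within their counting interval, 3 moved beyond it (Oas1d, to 0.06, 0.05 and 0.06 on the authors' scaled ratio) and 0 changed direction. Counts of genes at least 2-fold apart depended on the level required. With 1 count sufficing, they were 2 Oas (Oas1f, and Oas3 on 1 count), 1 of the 2′-5′ oligoadenylate pathway, 5 sensing, 9 interferon signalling and 18 interferon-induced genes, against 1, 0, 1, 0 and 0; of all 18017 genes 38.6% were as far apart. With 10 counts in at least 1 library they were 1, 1, 4, 4 and 6 (23.6% of all genes). At a 1.5-fold threshold they were 2, 1, 3, 0 and 2 (17.5% of expressed genes). Depth limits Oas1a, Oas1g, Oas2 and Oas3, which had at most 19 counts.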
